A study of Mus musculus with 24 samples.

Results

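The 10 genes described here encode enzymes that oxidise or hydrolyse foreign chemicals and reactive metabolites in the mouse lung. They are the cytochrome P450 genes Cyp1a1, Cyp1b1, Cyp2a5, Cyp2b10, Cyp2s1 and Cyp4b1, the flavin monooxygenase Fmo2, the aldehyde dehydrogenases Aldh1a1 and Aldh3a1, and the carboxylesterase Ces1d. They were chosen by symbol, and all 10 were found among the 26253 genes of the deposited count table and were among the 16153 that passed the filter on low counts. RNA was sequenced from whole lung of mice. They had been kept on the control diet or on food enriched in docosahexaenoic acid (DHA), an omega-3 fatty acid, and had afterwards breathed either filtered air or ozone, an oxidant gas. The 4 groups are control-diet air, control-diet ozone, DHA-diet air and DHA-diet ozone, with 6 libraries each. The labels give no strain, sex, age, DHA dose, ozone concentration or time after exposure. Whether each library is a separate mouse is also not stated, so p-values reflect only how far these libraries differed, which may be partly technical.

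Cytochrome P450 enzymes insert an oxygen atom into lipophilic compounds with electrons passed on by NADPH-cytochrome P450 reductase, the product of Por. In the mouse lung much of this activity sits in club cells of the bronchioles, secretory cells that also make the protein Scgb1a1, while flavin monooxygenases oxidise nitrogen and sulfur atoms of drugs and aldehyde dehydrogenases remove aldehydes that arise, among other routes, when lipids are oxidised. Several of the genes are classic targets of receptors that sense chemicals: Cyp1a1 and Cyp1b1 of the aryl hydrocarbon receptor (AHR), Cyp2b10 of the constitutive androstane receptor in liver, and Aldh3a1 in part of the antioxidant factor NRF2.

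Library totals ran from 18053493 to 26225630 counts. Levels are given as CPM, or counts-per-million (mean ± SD over 6 libraries unless stated), and differences are log2 fold changes ± SE from edgeR's quasi-likelihood test on all 24 libraries, with p-values adjusted by the Benjamini-Hochberg method over all 16153 genes. A gene is called at an adjusted p under 0.05. None of the marker genes of club, ciliated or alveolar type 2 cells was at 0 in all libraries. The summed level of 14 club cell markers ran from 67832 to 158630 CPM and that of 10 hepatocyte markers stayed at or below 24.4 CPM. In bulk tissue, fewer cells of a type and less RNA per cell cannot be told apart. Individual libraries stood apart for these genes. DHA-diet ozone library 1 had the lowest level of the 24 for Scgb1a1 (53930 CPM) and for Cyp2f2 (2681 CPM), the main P450 of club cells, and DHA-diet ozone library 2 had the highest for Nqo1 (104 CPM), a quinone reductase regulated by NRF2. DHA-diet air library 1 stood apart in Cyp1a1. Results that rest on these libraries are given with and without them. Each group enters 2 of the 4 comparisons of groups, so those comparisons share libraries and are not independent.

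Few of the 10 genes differed between groups beyond the spread between libraries. On the control diet ozone changed 0 of 10 by edgeR's test, against 16.8% of all genes called (8.93% higher and 7.87% lower). DESeq2 and limma-voom also called 0 of the 10. At an unadjusted edgeR p under 0.05 there was 1 of the 10, beside 4913 of all 16153 genes. On the DHA diet ozone changed 2 of 10 (Aldh3a1 higher and Cyp1a1 lower), against 23.7% of all genes (12.7% higher and 11% lower). Each of these calls ended when certain single libraries were left out, as given below. DESeq2 and limma-voom called 1 of the 10 each, and DESeq2 gave Cyp1a1 no adjusted p. The DHA diet changed 1 of 10 in air (Fmo2, in a call that also ended without certain single libraries), against 1.15% of all genes (0.724% higher and 0.427% lower). After ozone it changed 0 of 10, where 0% of all genes were called. At an unadjusted edgeR p under 0.05 there were 4 of the 10 in air, beside 2798 of all 16153 genes. After ozone there were 0 of the 10 at that threshold, beside 2260 of all genes, and DESeq2 and limma-voom called 0. The interaction of diet and ozone was called for 0 of the 10 and for 0% of all genes, and for 0 of the 10 by DESeq2 and limma-voom. At an unadjusted edgeR p under 0.05 there was 1 of the 10, beside 988 of all 16153 genes. The median log2 fold change of the 10 was 0.14 for ozone on the control diet, where all genes had a median of −0.0055, and −0.0044 for ozone on the DHA diet, where all genes had −0.011. For diet the medians were 0.031 in air and −0.039 after ozone, beside 0.0043 and 0.0054 for all genes.

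**Figure D1:**
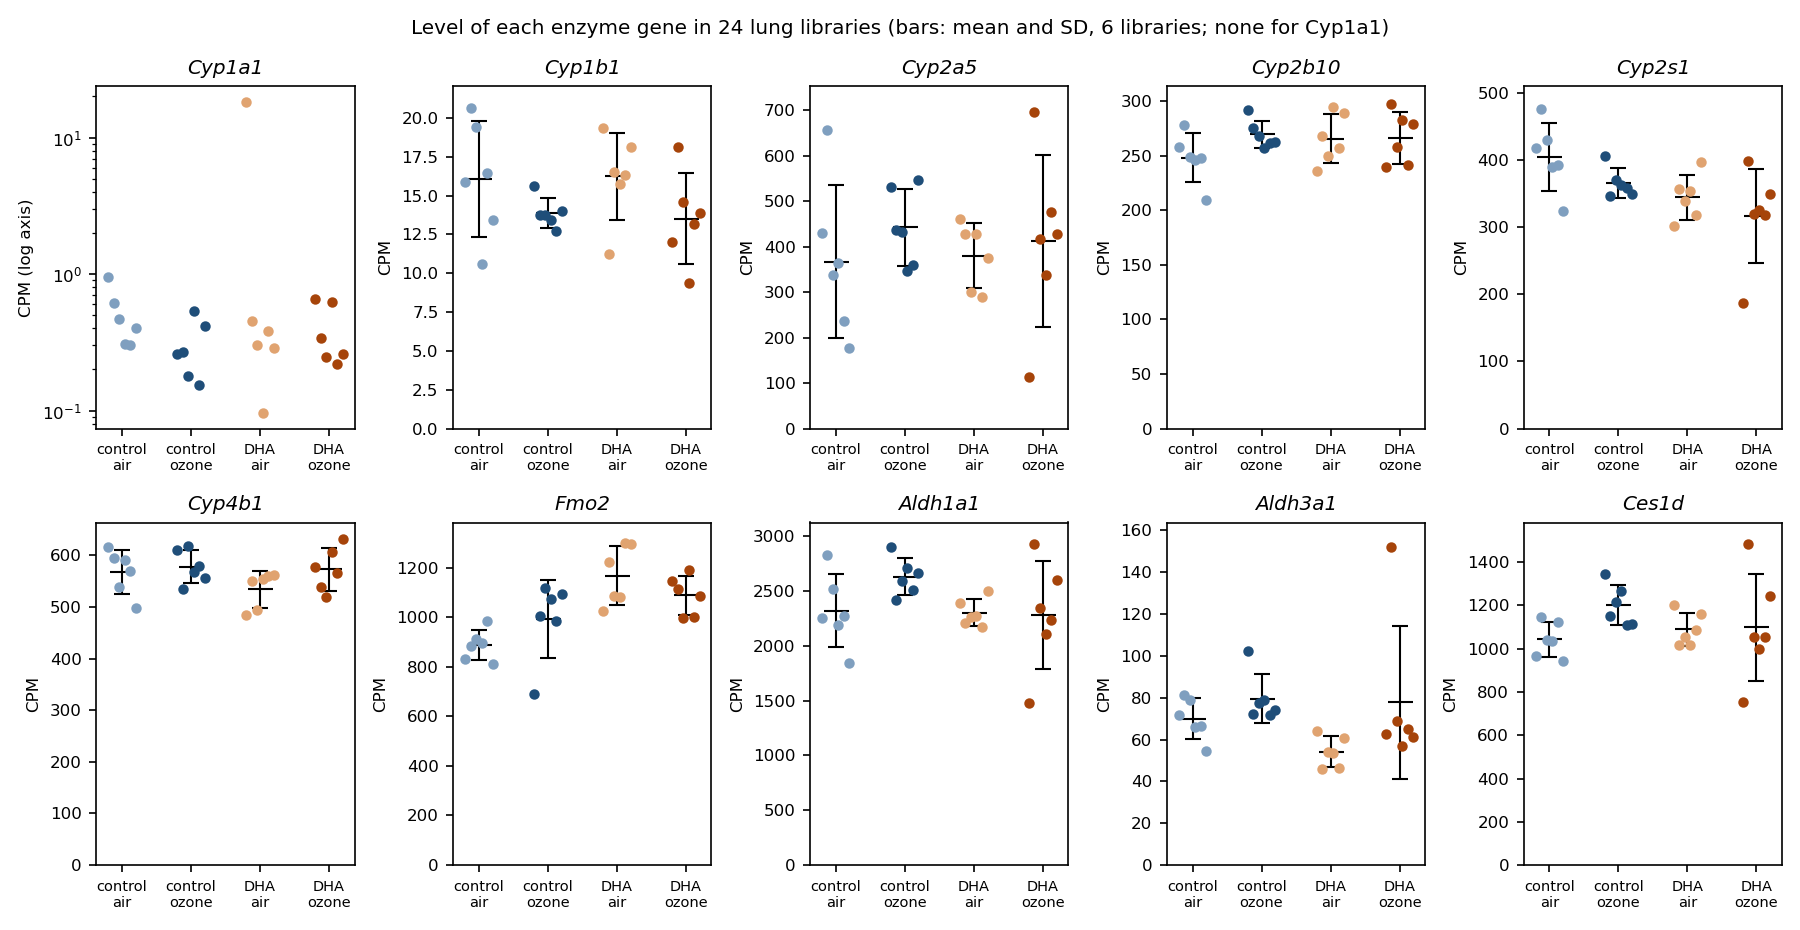
Level in CPM of each of the 10 enzyme genes in every library, by group, with bars for the mean and SD of 6 libraries (no bars for Cyp1a1, whose axis is logarithmic). All 6 DHA-diet air libraries lie above all 6 control-diet air libraries for Fmo2, and 1 library stands far above the rest for Cyp1a1 in DHA-diet air (18.3 CPM) and for Aldh3a1 in DHA-diet ozone (152 CPM).

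Levels per kilobase of exon set the genes in the following order in control-diet air. Aldh1a1 was highest at 969 ± 139 CPM per kb, followed by Ces1d at 521 ± 41.1 and Cyp4b1 at 300.2 ± 22.9. Fmo2 at 201 ± 13.8 and Cyp2a5 at 182 ± 83.5 CPM per kb did not differ beyond their spread. Cyp2s1 and Cyp2b10 both stood at 128 CPM per kb, within 1 SD of Cyp2a5. Aldh3a1 was at 37.7 ± 5.30, Cyp1b1 at 3.08 ± 0.714 and Cyp1a1 at 0.182 ± 0.0872 CPM per kb. Exon lengths came from an annotation of the earlier GRCm38 assembly, so this order is approximate.

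Fmo2 was the gene of the set that differed most clearly between the diets in air. It encodes the main flavin monooxygenase of the mouse lung and its gene spans bases 162701886 to 162726328 of chromosome 1 (mm39, as deposited). Control-diet air libraries ran from 812 CPM to 984 CPM with a median of 889.7, and DHA-diet air libraries from 1025 to 1299 with a median of 1154. The groups did not overlap, which was so for 1.85% of all genes in this comparison. Fmo2 rose 1.32-fold on the DHA diet (95% interval 1.16 to 1.49; log2 fold change 0.40 ± 0.086, edgeR adjusted p = 0.0218), from 887 ± 61.1 to 1169 ± 120 CPM. Leaving out control-diet air library 1 ended the call (log2 change 0.38, edgeR adjusted p = 0.0661), as did leaving out library 2 of that group (0.39, 0.0593), DHA-diet air library 2 (0.38, 0.0509) or 5 (0.36, 0.0747), or control-diet air libraries 1 to 3 together (0.37, 0.168). In these fits the log2 fold change itself stayed between 0.36 and 0.39.

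Alveolar type 2 markers were also higher in DHA-diet air. Their summed level was 36686 CPM there (34891 to 38730), against 29550 CPM (24874 to 37210) in control-diet air. Of the 10 markers 5 rose and 0 fell, beside 0.724% and 0.427% of all genes. That count was 1 without control-diet air library 1, 2 or 4, 2 without DHA-diet air library 3, 4 or 5, 3 without DHA-diet air library 2, and 0 without control-diet air libraries 1 to 3. The part of these cells in the Fmo2 difference was not tested. Within groups, Fmo2 and Sftpc, the surfactant protein gene of alveolar type 2 cells, had a Pearson r of 0.051 over 24 libraries. Group means were removed first, so this value leaves out the diet difference and cannot speak to it.

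After ozone Fmo2 stood at 994 ± 157 CPM on the control diet and 1089 ± 78.1 CPM on the DHA diet. Control-diet ozone libraries ran from 691 to 1118 CPM (median 1039) and DHA-diet ozone libraries from 996 to 1192 CPM (median 1099), and the groups overlapped. Groups without overlap made up 0.83% of all genes in this comparison. The log2 difference between the diets was 0.13 ± 0.086 (edgeR adjusted p = 0.506), with a 95% interval of −0.048 to 0.31. The interaction, which compares the diet difference after ozone with that in air, was −0.27 ± 0.12 (edgeR unadjusted p = 0.0372, adjusted p = 0.794). Its 95% interval was −0.52 to −0.013, without adjustment for the number of genes. After adjustment the diet difference was not shown to change with ozone. Control-diet ozone library 1 held 691 CPM, the lowest of the 24 libraries, while the other libraries of its group ran from 984 to 1118 CPM. Without it the ozone difference in control-diet mice was called (log2 fold change 0.26, edgeR adjusted p = 0.0104), against 0.16 ± 0.086 (adjusted p = 0.197) with it. The same library had the highest Scgb1a1 level of the 24 (128346 CPM).

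Aldh3a1 rose with ozone on the DHA diet, by an amount that depended on 1 library. The enzyme oxidises medium-chain aldehydes, and its gene lies on chromosome 11 at 61099568 to 61109243. DHA-diet air libraries ran from 46.1 to 64.3 CPM (median 53.9) and DHA-diet ozone libraries from 57.0 to 152 CPM (median 63.9), with 3 of the 6 ozone libraries above all air libraries. The fold change was 1.43 (95% interval 1.12 to 1.83; log2 fold change 0.52 ± 0.17, edgeR adjusted p = 0.0291). DHA-diet ozone library 2 held 152 CPM, and the other 5 of its group held 57.0 to 69.0 CPM. Without it the log2 fold change was 0.21 (edgeR adjusted p = 0.123), and without DHA-diet ozone libraries 1 and 2 it was 0.22 (adjusted p = 0.136). The call also ended without DHA-diet air library 2 (0.48, edgeR adjusted p = 0.0605), 3 (0.51, 0.0504) or 5 (0.48, 0.0632).

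Library 2 was also the highest of the 24 for the glutathione synthesis subunit Gclm (109 CPM, against 43.2 to 75.5 in the other 23), for glutathione reductase Gsr (169 CPM, against 77.2 to 128) and for the pentose phosphate enzyme Pgd (334 CPM, against 156 to 267). It was the highest as well for Cyp2a5, Cyp2b10, Aldh1a1 and Ces1d. On the control diet Aldh3a1 stood at 69.9 ± 9.82 CPM in air and 79.5 ± 11.6 CPM after ozone (log2 fold change 0.19 ± 0.17, edgeR adjusted p = 0.498). Control-diet ozone library 1 was high at 102 CPM beside 71.9 to 78.9 CPM in the other 5. The diet difference in air was −0.37 ± 0.17 on the log2 scale (edgeR adjusted p = 0.267), from 69.9 ± 9.82 to 54.2 ± 7.32 CPM, with 4 of 6 DHA-diet libraries below all control-diet libraries. Leaving out DHA-diet ozone library 2, which belongs to neither of these groups, gave a call (−0.37, edgeR adjusted p = 0.0482). Without DHA-diet ozone libraries 1 and 2 the adjusted p was 0.0290 in the same edgeR test.

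**Figure D2:**
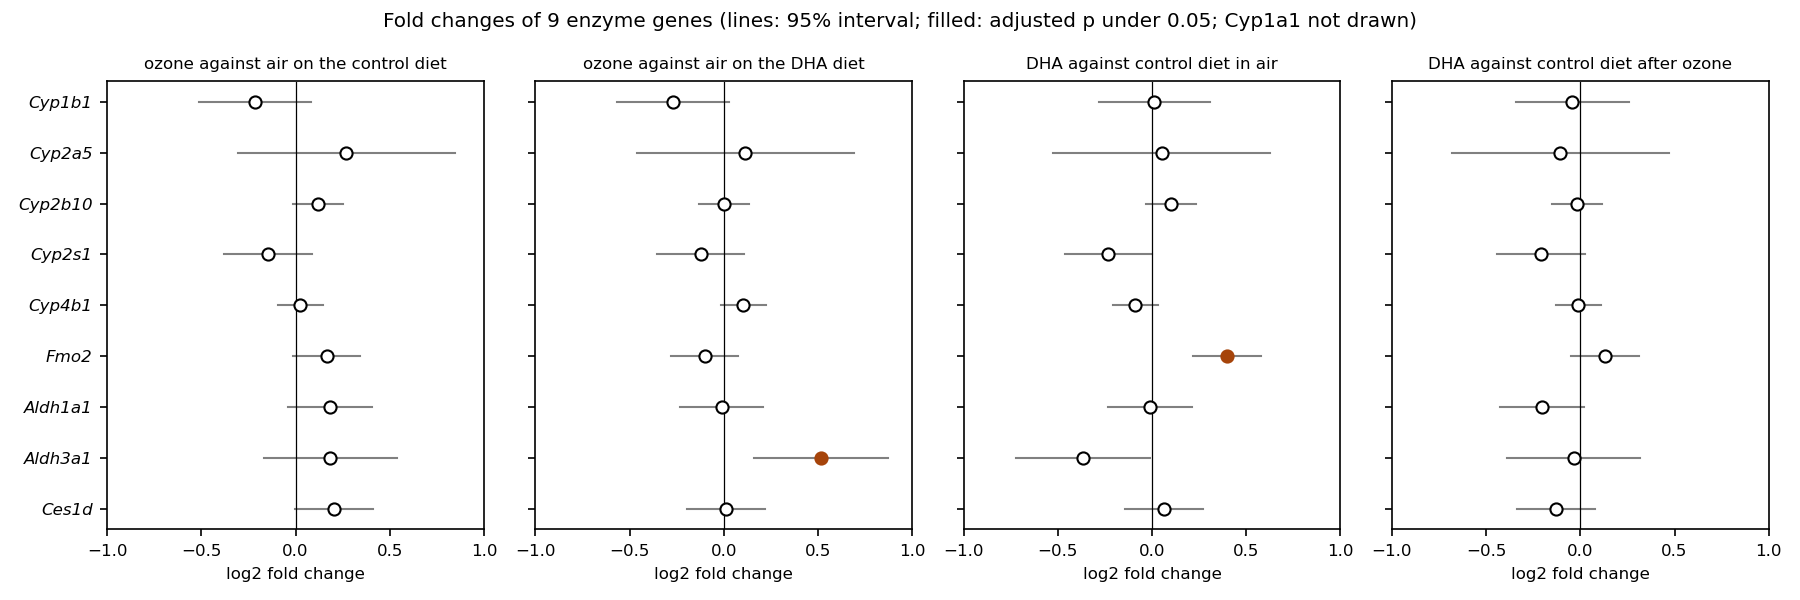
Log2 fold change of 9 enzyme genes (x axis) in 4 comparisons, with lines for the 95% interval and filled points for an adjusted p under 0.05; Cyp1a1 is not drawn. The filled points are Fmo2 for diet in air (0.40) and Aldh3a1 for ozone on the DHA diet (0.52), the latter 0.21 without DHA-diet ozone library 2.

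Cyp1a1, the best known target of AHR and an oxidiser of polycyclic aromatic hydrocarbons, was low in 23 libraries and far higher in 1. DHA-diet air library 1 held 403 counts (18.3 CPM), while the other 23 libraries held 2 to 21 counts (0.0961 to 0.944 CPM), so library 1 was 19.4-fold above the highest of them. The other 5 DHA-diet air libraries averaged 0.305 ± 0.135 CPM. Control-diet air libraries ran from 0.302 to 0.944 CPM (median 0.435), control-diet ozone libraries from 0.154 to 0.534 (median 0.263) and DHA-diet ozone libraries from 0.221 to 0.655 (median 0.301). These ranges overlap throughout.

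The fit called Cyp1a1 lower after ozone on the DHA diet (log2 fold change −3.02 ± 0.89, edgeR adjusted p = 0.0145), and this call rested on library 1. Without DHA-diet air library 1 the log2 fold change was 0.37 (edgeR adjusted p = 0.574), the opposite direction. The diet difference in air was 2.67 ± 0.86 (edgeR adjusted p = 0.106) with the library and −0.72 (adjusted p = 0.394) without it. Limma-voom with quality weights gave −0.42 for ozone on the DHA diet (limma adjusted p = 0.696), and DESeq2 gave −3.08 but no adjusted p for Cyp1a1 in any comparison.

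Other AHR targets did not share the excess in DHA-diet air library 1 to the same degree. Its Cyp1b1 level was 19.4 CPM, rank 3 of 24 from the highest, and its Nqo1 level 47.5 CPM, rank 2. Tiparp, an AHR-induced ADP-ribosyltransferase, was at 30.6 CPM, rank 22, and Ahrr, the AHR repressor, at 0.136 CPM from 3 counts. Cyp1a2, the closest relative of Cyp1a1, had 3 counts there and 0 to 1 in the other libraries. On the log2 scale Cyp1a1 stood 4.16 above the highest of the other 23 libraries, and the next gene by this measure, Siglech, a receptor of plasmacytoid dendritic cells, stood 0.84 above.

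The promoters of Cyp1a1 and Cyp1b1 are shown because both genes are textbook AHR targets, so a reader can see the receptor's core motif next to their expression. The sequences are the 250 bases before the annotated start in RefSeq's table (GRCm38.p6), printed 5′ to 3′ on the strand of the gene. Capitals mark the xenobiotic response element core, GCGTG, or its reverse complement CACGC.
Cyp1a1, chr9:57697363-57697612, plus strand: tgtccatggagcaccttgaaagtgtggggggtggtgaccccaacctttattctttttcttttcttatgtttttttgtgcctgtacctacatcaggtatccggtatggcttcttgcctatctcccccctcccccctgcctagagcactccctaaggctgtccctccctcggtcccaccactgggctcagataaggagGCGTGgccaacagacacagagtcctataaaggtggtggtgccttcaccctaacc
Cyp1b1, chr17:79715062-79715311, minus strand: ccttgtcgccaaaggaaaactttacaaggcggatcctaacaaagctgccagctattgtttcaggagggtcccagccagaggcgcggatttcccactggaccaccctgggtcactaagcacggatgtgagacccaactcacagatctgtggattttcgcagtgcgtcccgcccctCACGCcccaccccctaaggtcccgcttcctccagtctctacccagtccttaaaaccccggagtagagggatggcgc
Each window held 1 match, with its first base at −54 in Cyp1a1 and at −76, on the opposite strand, in Cyp1b1. Of the 10 genes 8 were in the table, and among them only Cyp2b10 also held the motif, with 2 matches. On both strands together GCGTG occurred in 28.2% of 32851 promoter windows and at least 2 matches in 8.63%. The antioxidant response element core TGACNNNGC occurred in 10.2% of windows and in 0 of the 8. Aldh3a1 and Ces1d were not in the table, so their promoters were not searched for either motif. These matches describe the sequence and do not show binding. Bases farther upstream were not searched, so motifs outside these windows would be missed.

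Cyp1b1, an AHR target that is also expressed in stromal cells without induction, did not pass the test in any comparison. It lies on chromosome 17 at 80014370 to 80022491, and Cyp1a1 lies on chromosome 9 at 57595211 to 57611108. On the control diet it held 16.1 ± 3.72 CPM in air and 13.9 ± 0.966 CPM after ozone, and on the DHA diet 16.2 ± 2.79 and 13.5 ± 2.91 CPM. The ozone differences were −0.21 ± 0.14 on the control diet (edgeR adjusted p = 0.325) and −0.27 ± 0.14 on the DHA diet (adjusted p = 0.176). For diet in air the 95% interval of the log2 difference was −0.28 to 0.31.

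The family 2 genes Cyp2a5, Cyp2b10 and Cyp2s1 lie within little more than a megabase of each other on chromosome 7, at 26534764 to 26542690, 25597083 to 25626050 and 25501894 to 25515951. None passed the test in any comparison. Cyp2a5, which oxidises coumarin and nicotine, varied most between libraries: control-diet air ran from 178 to 656 CPM (median 351), control-diet ozone from 346 to 548 (median 436), DHA-diet air from 289 to 461 (median 402) and DHA-diet ozone from 114 to 696 (median 423). The 95% interval of its ozone difference on the control diet reached from −0.31 to 0.85 on the log2 scale. Its near-identical copy Cyp2a4 had 0.116 to 1.09 CPM, and reads shared between the copies could be counted for either.

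Cyp2b10 was the steadiest of these. Its group means ran from 248 ± 22.4 CPM in control-diet air to 269.6 ± 12.7 CPM in control-diet ozone, and the 95% interval of the log2 difference between these groups was −0.014 to 0.25. The related genes Cyp2b9 and Cyp2b13 stayed at or below 0.329 CPM. Cyp2s1, an epithelial P450 outside the liver, was highest in control-diet air at 405 ± 50.6 CPM and lowest in DHA-diet ozone at 317 ± 70.5 CPM, the former 1.28-fold above the latter. Its diet difference in air was −0.23 ± 0.11 (edgeR adjusted p = 0.281), and it was called when DHA-diet ozone libraries 1 and 2 were left out (−0.23, edgeR adjusted p = 0.0474). Summed club cell markers were lower in the same direction (122750 ± 13230 CPM in control-diet air, 111090 ± 7211 CPM in DHA-diet air), as were ciliated cell markers (1766 ± 122 and 1553 ± 108 CPM). Scgb1a1 alone made up most of the club cell sum (97287 ± 11445 and 88281 ± 6006 CPM). The median log2 fold change of the 14 club cell markers was −0.28. By edgeR 0 of 14 club and 0 of 10 ciliated cell markers were called, but 3 and 6 were called lower without DHA-diet ozone library 1, and limma-voom called 6 and 4 lower. Their part in the Cyp2s1 difference was not tested.

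Cyp4b1, a P450 that is abundant in lung and activates furan toxins in rabbit, showed the narrowest intervals. It lies on chromosome 4 at 115481895 to 115504919. Group means ran only from 534 ± 35.6 CPM in DHA-diet air to 578 ± 31.9 CPM in control-diet ozone, 1.08-fold apart. The 95% interval of the ozone difference was −0.095 to 0.14 on the control diet and −0.018 to 0.22 on the DHA diet, and no difference passed the test.

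Aldh1a1, which makes retinoic acid from retinaldehyde, and Ces1d, which hydrolyses esters and triacylglycerol, also did not pass the test in any comparison. They lie on chromosome 19 at 20469947 to 20620828 and on chromosome 8 at 93892700 to 93924433. Aldh1a1 stood at 2320 ± 332 CPM in air and 2631 ± 168 CPM after ozone on the control diet, and at 2302 ± 121 and 2283 ± 491 CPM on the DHA diet. Ces1d stood at 1043 ± 82.3, 1201 ± 92.7, 1089 ± 76.7 and 1099 ± 246 CPM in the same order. For Ces1d 4 of 6 control-diet ozone libraries lay above all control-diet air libraries (log2 fold change 0.20 ± 0.099, edgeR adjusted p = 0.163), and the difference was called when DHA-diet ozone libraries 1 and 2 were left out (0.20, adjusted p = 0.0246). The spread was widest in DHA-diet ozone, where library 1 held the lowest and library 2 the highest level of the 24 for both genes: 1479 and 2932 CPM for Aldh1a1, and 754 and 1486 CPM for Ces1d. Aldh1a1 has a close copy, Aldh1a7, and Ces1d belongs to a family of similar genes, so reads shared between copies make both counts uncertain.

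Several of the genes varied in concert between the libraries of a group. After group means were removed, Pearson r over the 24 libraries was 0.92 between Aldh1a1 and Cyp2s1 (Spearman rho 0.70), 0.89 between Aldh1a1 and Ces1d (rho 0.78) and 0.87 between Aldh1a1 and Cyp2a5 (rho 0.65). DHA-diet ozone libraries 1 and 2 carried part of this: without them the values were 0.79, 0.74 and 0.70. Other pairs fell further without them, from 0.84 to 0.62 for Cyp2a5 and Cyp2s1, from 0.78 to 0.42 for Cyp2s1 and Ces1d (rho 0.47 over all 24) and from 0.70 to 0.29 for Cyp2a5 and Ces1d (rho 0.37). Cyp1b1 and Aldh3a1 had an r of 0.70 (rho 0.70), and 0.69 without those libraries. Fmo2 varied apart from them, with r from −0.24 to 0.18 with the other 9 genes. Cyp4b1 came nearest to Cyp2b10 (r = 0.56, and 0.71 without DHA-diet ozone libraries 1 and 2). Leaving out these libraries also raised its r with Cyp2s1, from 0.27 to 0.64. All these values share depth and tissue sampling and are given as a description.

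**Figure D3:**
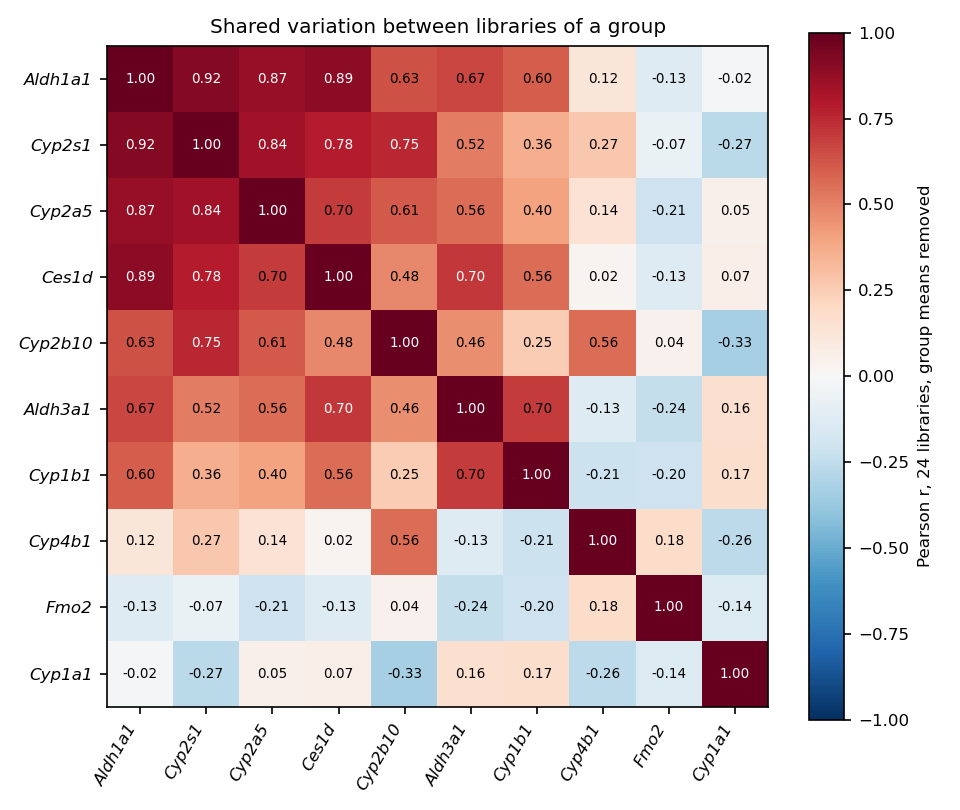
Pearson r between the 10 enzyme genes over 24 libraries, in log2 CPM with group means removed; colour and number give r. Aldh1a1, Cyp2s1, Cyp2a5 and Ces1d had r from 0.70 to 0.92 with each other (0.29 to 0.79 without DHA-diet ozone libraries 1 and 2), while r with the other genes runs from −0.24 to 0.18 for Fmo2 and from −0.33 to 0.17 for Cyp1a1.

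The genes whose variation was most like each member differed between members. For Cyp2s1 they included Cdhr3, a cadherin-like protein of ciliated cells (r = 0.96, and 0.89 without the 2 libraries farthest from the median), and Drc3, a part of the ciliary axoneme (0.96 and 0.88). For Aldh1a1 they were Lpar3, a lysophosphatidic acid receptor (0.92 and 0.88), Cyp2f2 (0.92 and 0.84) and Cyp2s1. Aldh3a1 was nearest to Gclm (0.92 and 0.84), Gsr (0.91 and 0.79) and Ttc12 (0.91 and 0.78). Cyp1b1 was nearest to the glucuronosyltransferase Ugt1a6a (0.89 and 0.92), Pgd (0.88 and 0.87) and the aldehyde oxidase Aox1 (0.87 and 0.90).

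Ces1d was nearest to the epoxide hydrolase Ephx1 (0.92 and 0.76), Pir (0.92 and 0.79) and the paraoxonase Pon1 (0.92 and 0.84). Cyp2a5 was nearest to Aldh1a1, the alcohol dehydrogenase Adh7 (0.87 and 0.72) and Rgs22 (0.86 and 0.67), and the genes nearest to Cyp2b10 included Anxa8 (0.85 and 0.77) and Sec14l3 (0.82 and 0.73). Fmo2 was nearest to Crim1 (0.87 and 0.67), Olfr1033 (0.86 and 0.74) and Adamtsl1 (0.86 and 0.63). For Cyp4b1 the nearest genes reached only 0.72 (Zfp13), 0.70 (Atp5a1) and 0.68 (Gnas). For Cyp1a1 they were Rgs5 (0.77 and 0.55), H2-T24 (0.76 and 0.59) and Trim30a (0.74 and 0.18). Without DHA-diet air library 1 these 3 values were 0.70, 0.60 and 0.36.

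**Figure D4:**
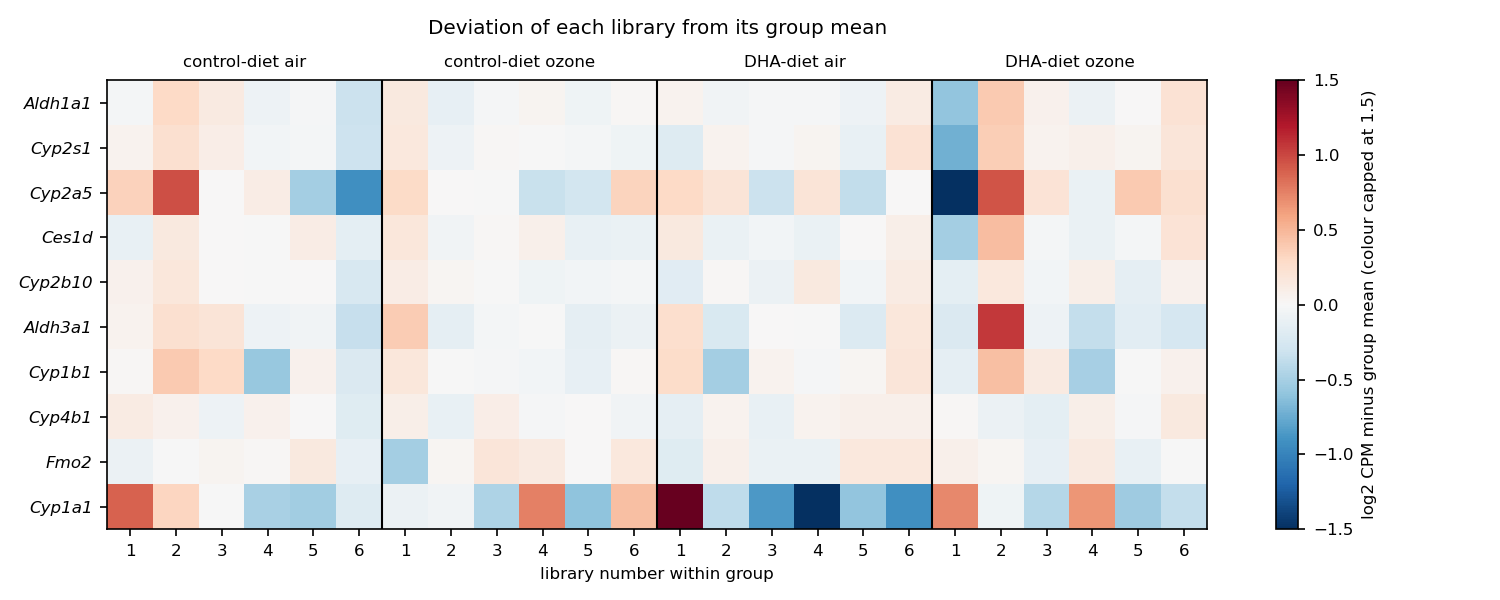
Deviation of each library from its group mean in log2 CPM (colour, capped at 1.5) for the 10 genes (rows) and the 24 libraries in 4 groups (columns). DHA-diet ozone library 1 lies below its group for Aldh1a1, Cyp2s1, Cyp2a5 and Ces1d and library 2 above it, and DHA-diet air library 1 stands out for Cyp1a1.

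Among related enzymes, the glutathione transferases had the most calls, all for ozone and all higher. These enzymes, which couple glutathione to reactive compounds, rose in 8 of 24 on the control diet, where 8.93% of all genes rose, and in 7 of 24 on the DHA diet, where 12.7% did. Their median log2 fold changes were 0.19 and 0.16. The count on the control diet was 5 without library 3 or 4 of control-diet air or library 3 of control-diet ozone, and 3 without control-diet air libraries 1 to 3. On the DHA diet it was 11 without DHA-diet ozone library 1. Mgst3, a microsomal member, rose from 47.5 ± 3.68 to 65.1 ± 4.17 CPM on the control diet (a log2 difference of 0.46 ± 0.052, edgeR adjusted p = 6.62e-06) and from 49.0 ± 0.795 to 71.8 ± 4.64 CPM on the DHA diet (0.55 ± 0.051, adjusted p = 1.89e-07). Air and ozone libraries did not overlap for Mgst3 on either diet, which was so for 7.76% of all genes on the control diet and 9.03% on the DHA diet. Gsto1, an omega class member, rose 1.34-fold on the control diet and 1.48-fold on the DHA diet.

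Markers of some other cell types also rose with ozone. Of all genes 8.93% rose and 7.87% fell on the control diet, and 12.7% rose and 11% fell on the DHA diet. Macrophage markers rose in 5 of 12 on each diet, and their summed level went from 310 CPM (251 to 379) to 469 CPM (426 to 534) on the control diet and from 326 CPM (294 to 362) to 485 CPM (412 to 551) on the DHA diet. The count was 2 on the control diet without control-diet air libraries 1 to 3, and 3 on the DHA diet without DHA-diet ozone libraries 1 and 2. Alveolar type 2 markers rose in 7 of 10 on the control diet, with sums of 29550 CPM (24874 to 37210) in air and 35420 CPM (35006 to 36151) after ozone. In DHA-diet mice 3 of the 10 rose and 1 fell, with sums of 36686 CPM (34891 to 38730) and 38244 CPM (36701 to 39962), and 2 rose and 0 fell without DHA-diet air library 1 or 3 or DHA-diet ozone library 4 or 6. Neutrophil markers rose in 7 of 10 on the DHA diet, with sums of 65.2 CPM (48.7 to 89.4) in air and 167 CPM (78.5 to 364) after ozone. That count was 4 without DHA-diet ozone library 2, 2 without DHA-diet ozone libraries 1 and 2, and 3 in limma-voom. On the control diet 1 of the 10 rose. No marker of these 3 lists was at 0 in all libraries. The part of these cells in the ozone differences of the enzyme families was not tested.

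Aldehyde dehydrogenases rose with ozone in 3 of 19 on the control diet (Aldh1a7, Aldh1l1 and Aldh7a1) and in 4 of 19 on the DHA diet (the same 3 and Aldh3a1), beside 8.93% and 12.7% of all genes. Of the 24 fits that each left out 1 library, 17 kept the Aldh1a7 call on the DHA diet. The count on the DHA diet was 2 without DHA-diet air library 2, 3 or 5 and 8 without DHA-diet ozone library 1. Aldh1l1, which oxidises formyltetrahydrofolate, rose 1.46-fold on both diets (log2 fold changes 0.54 ± 0.12 and 0.55 ± 0.13, edgeR adjusted p = 0.00373 and 0.00265), from 18.2 ± 1.90 to 26.6 ± 4.20 CPM and from 14.7 ± 3.17 to 21.5 ± 3.15 CPM. Carboxylesterases rose in 2 of 9 on the control diet, Ces1b and Ces1g, beside 8.93% of all genes. Ces1g, which hydrolyses lipid esters in liver, rose 2.22-fold (17.6 ± 4.45 to 39.3 ± 8.42 CPM), and its group did not overlap with control-diet air. The count was 1 without control-diet air library 1, 3, 4 or 6 and without control-diet ozone library 1, 2, 3, 4 or 6. On the DHA diet Ces1g rose and Ces2e fell. There the higher count was 0 without any of DHA-diet air libraries 2 to 6 or DHA-diet ozone library 2 or 3. The lower count was 0 without DHA-diet air library 1 or DHA-diet ozone library 1 or 3, and 2 without DHA-diet ozone library 2 or 4.

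Of 22 measured P450 genes of families 1 to 4 outside the set, 1 rose with ozone on the control diet (Cyp3a13) and 3 fell (Cyp2b19, Cyp2d22 and Cyp4a12b), beside 8.93% and 7.87% of all genes. On the DHA diet 0 rose and 3 fell (Cyp2g1, Cyp4a12b and Cyp4f17), beside 12.7% and 11%. Cyp3a13, a steroid and drug oxidiser, rose 1.43-fold from 8.92 ± 1.29 to 12.8 ± 0.999 CPM. On the control diet the falls numbered 0 without control-diet air library 1 or 3 and 1 without library 2 or 4 of control-diet air or library 1, 2, 3 or 6 of control-diet ozone. On the DHA diet they numbered 1 without library 1, 3, 5 or 6 of DHA-diet air or library 1, 3 or 4 of DHA-diet ozone. Among 7 genes listed as electron donors of P450 enzymes 2 rose on each diet, Cyb5b and Cyb5r3, beside 8.93% and 12.7% of all genes. Por, the reductase that passes electrons to P450 enzymes, was not called with ozone on either diet. Its log2 fold change was 0.22 ± 0.11 on the control diet (edgeR adjusted p = 0.163) and 0.20 ± 0.11 on the DHA diet (adjusted p = 0.175). Cyb5b, an outer mitochondrial cytochrome b5, rose by 0.27 and 0.23 on the log2 scale. The count was 1 on the control diet without library 2, 3 or 4 of control-diet air or library 2, 3, 4 or 6 of control-diet ozone, and on the DHA diet without library 3 or 4 of DHA-diet air or library 4 or 6 of DHA-diet ozone.

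The chemical-sensing receptor genes Ahr and Nr1i2 did not pass the test in any comparison. Ahr held 57.8 to 89.0 CPM over the 24 libraries, with group means from 70.8 ± 10.4 to 74.4 ± 5.03 CPM. Among the genes of the AHR pathway, Arnt, the partner of AHR, fell with ozone on the DHA diet by 0.13 on the log2 scale, and Cyp1a1 was called lower there as described. The Arnt call ended without DHA-diet air library 1 or 5 or DHA-diet ozone library 3. Nr1i2, the pregnane X receptor, was low at 1.93 to 5.27 CPM, and its log2 difference between the diets after ozone was −0.53 ± 0.18 (edgeR adjusted p = 0.208). Nr1i3, the constitutive androstane receptor, was at or below 0.567 CPM in every library. Among 9 receptors, partners and targets of this pair, Cyp3a13 rose on the control diet and Nr3c1, the glucocorticoid receptor, fell on the DHA diet by 0.13, a call that ended without DHA-diet air library 2 or 5. Of all genes 8.93% rose with ozone on the control diet and 11% fell on the DHA diet.

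With ozone 8.93% of all genes were called higher and 7.87% lower on the control diet, and 12.7% and 11% on the DHA diet. Of 6 flavin monooxygenases Fmo4 fell with ozone on the DHA diet (2 fell without DHA-diet ozone library 1), and of 7 glucuronosyl and sulfotransferases Sult5a1 fell there, from 9.66 ± 1.20 to 6.53 ± 1.56 CPM (log2 fold change −0.56 ± 0.14, edgeR adjusted p = 0.00404). Of 20 epoxide hydrolases, quinone and carbonyl reductases 2 rose on each diet, among them the carbonyl reductase Dhrs4 (1.17-fold on both diets). The other gene was the aldo-keto reductase Akr1b8 on the control diet and Akr1c14 on the DHA diet. The Akr1b8 call ended without library 1, 4, 5 or 6 of control-diet air or any of libraries 2 to 6 of control-diet ozone. Of 14 retinoic acid genes 3 rose (Rbp4, Rdh11 and Adh7) and Rara, a retinoic acid receptor, fell on the control diet, and Rbp4 rose on the DHA diet. Rbp4, the retinol carrier, rose on both, from 34.5 ± 2.23 to 45.0 ± 6.33 CPM and from 32.7 ± 3.28 to 40.6 ± 5.11 CPM. On the control diet only 1 rose without library 6 of control-diet air or library 3 or 4 of control-diet ozone, and 0 fell without control-diet ozone library 5. Of the 24 fits that each left out 1 library, 7 kept the Rdh11 call and 18 the Adh7 call. On the DHA diet 2 rose without DHA-diet ozone library 1 or 2.

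For diet in air the alcohol dehydrogenase Adh1, of the retinoic acid list, rose from 124 ± 6.21 to 148 ± 7.97 CPM with no overlap (log2 fold change 0.26 ± 0.055, edgeR adjusted p = 0.0202). That call ended without control-diet air library 1 or 2 or DHA-diet air library 5.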

How the data were processed

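RNA-seq was analysed in 24 libraries of mouse lung. Per the submitters' processing notes, Partek, STAR and HTSeq were used with mm39. The labels give no versions, annotation or strand setting. The deposited table holds unnormalised counts for each gene, all whole, with the counts of 1 gene (Scgb1a1) rounded to 3 significant digits. Gene positions are as deposited, and whether they count from 0 or 1 is not given. Totals ran from 18053493 to 26225630 counts.

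Groups came from the labels. Genes were filtered with filterByExpr (minimum count 10, minimum total 15), leaving 16153. Counts were scaled by TMM and fitted with edgeR 4.0.16 (R 4.3.3) quasi-likelihood models with 1 mean per group over all 24 libraries (20 residual degrees of freedom). The standard error of a log2 fold change is its size over the root of its F statistic, and 95% intervals use the t quantile at 20 degrees of freedom. A call needed an adjusted p (Benjamini-Hochberg, over all genes) under 0.05. CPM used TMM-scaled library sizes, and correlations used log2 CPM with a prior count of 2 after group means were removed. Tested were ozone on each diet, diet in each exposure, and their interaction. Named genes outside the 10 were up to 4 called genes of each list of related enzymes and receptors with a mean of at least 5 CPM, and the 3 genes most correlated with each member; results for some genes under this rule are not reported here. Genes under that level that were the only calls of a list were named after their values were seen.

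The alternatives were DESeq2 1.42.0, limma-voom 3.58.1 with quality weights, a replicate block, RLE scaling, library totals, no filter, a minimum of 1 CPM in 6 libraries, each library left out, control-diet air libraries 1 to 3 left out, and DHA-diet ozone libraries 1 and 2 left out. The members, the lists and the libraries left out together were chosen with earlier results of these data known. The fits were checked on simulated counts, where the interaction test called 16.3% of 1.25-fold, 60% of 1.5-fold and 74% of 2-fold changes. Promoters came from RefSeq (GRCm38.p6) and exon lengths from GENCODE M21. Tables and figures used Python 3.11.15.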

Additional observations from a re-analysis of the deposited data

Results flagged for a closer look

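Each gene and group was tested for a library far from the other 5, in 40 combinations, of which chance alone would flag about 1 in 20, and 4 were flagged. In DHA-diet air, library 1 stood far above the others for Cyp1a1 at 18.3 CPM. In control-diet ozone, library 1 stood far below the others for Fmo2 at 691 CPM and far above them for Aldh3a1 at 102 CPM. In DHA-diet ozone, library 2 stood far above the others for Aldh3a1 at 152 CPM. What sets these libraries apart was not tested.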

How the results depend on the processing

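Of 1640 member fold changes under the alternatives, 1554 kept direction and side of the threshold, 12 lost and 5 gained a call, and 69 changed sign, all but 1 of the 69 in comparisons without a call. Counts of all genes for ozone on the control diet ran from 2045 to 3049 without 1 library and were 1803 without control-diet air libraries 1 to 3. They ran from 3175 to 3973 for ozone on the DHA diet. For diet in air they ran from 49 to 716, with 85 under the replicate block, 589 in DESeq2, 849 in limma-voom, 0 without control-diet air libraries 1 to 3 and 747 without DHA-diet ozone libraries 1 and 2. For diet after ozone they ran from 0 to 144, with 75 in DESeq2 and 19 in limma-voom, and for the interaction from 0 to 3, with 5 and 2. With library totals and no further scaling the calls split into 940 higher and 1737 lower for ozone on the control diet (1442 and 1271 with TMM), 1836 and 1832 on the DHA diet (2055 and 1769), and 72 and 113 for diet in air (117 and 69).

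Members called numbered 0 to 1 without 1 library for ozone on the control diet and 1 without DHA-diet ozone libraries 1 and 2. For ozone on the DHA diet they numbered 1 to 2, and 1 with the filter of 1 CPM, the replicate block, DESeq2, limma-voom or without DHA-diet ozone libraries 1 and 2 (DESeq2 gave Cyp1a1 no adjusted p). For diet in air they numbered 0 to 2, with 0 without control-diet air libraries 1 to 3 and 3 without DHA-diet ozone libraries 1 and 2. The Cyp1a1 value for ozone on the DHA diet was −1.80 with the replicate block (edgeR adjusted p = 0.0934), where same-numbered libraries had a mean correlation of −0.0169 and so were not taken as pairs. The replicate block ended no other member call.

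Sign changes without 1 library gave these ranges of log2 fold change. For ozone on the DHA diet they were −0.099 to 0.086 for Aldh1a1, −0.096 to 0.0997 for Ces1d, −3.28 to 0.37 for Cyp1a1, −0.10 to 0.31 for Cyp2a5 and −0.033 to 0.032 for Cyp2b10. For ozone on the control diet Cyp4b1 ran from −0.017 to 0.050. For diet in air the ranges were −0.075 to 0.049 for Aldh1a1, −0.72 to 2.94 for Cyp1a1, −0.089 to 0.093 for Cyp1b1 and −0.098 to 0.29 for Cyp2a5. After ozone they were −0.33 to 0.047 for Aldh3a1, −0.14 to 0.045 for Cyp1b1, −0.32 to 0.094 for Cyp2a5, −0.050 to 0.016 for Cyp2b10 and −0.041 to 0.016 for Cyp4b1. For the interaction they were −2.52 to 1.14 for Cyp1a1, −0.15 to 0.051 for Cyp1b1, −0.39 to 0.046 for Cyp2a5 and −0.049 to 0.14 for Cyp2s1.

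Other settings changed the sign of these values. Library totals gave −0.0038 for Ces1d and −0.0093 for Cyp2b10 (ozone on the DHA diet), −0.0146 for Cyp4b1 (ozone on the control diet) and −0.0054 for Cyp1b1 (diet in air). The replicate block gave −0.000318 for Ces1d (ozone on the DHA diet). Limma-voom gave 0.0169 for Aldh1a1 (ozone on the DHA diet), −0.12 for Cyp1a1 (diet in air) and 0.37 for its interaction. Without control-diet air libraries 1 to 3 the values were 0.12 for Aldh1a1 (diet in air), 0.032 for Cyp1b1 (ozone on the control diet) and −0.10 for the interaction of Cyp2s1. Without DHA-diet ozone libraries 1 and 2 they were 0.0165 for Aldh1a1 (ozone on the DHA diet) and 0.0090 for Cyp4b1 (diet after ozone). The cause of these changes was not tested. Cyp1a1, at 2 to 21 counts in 23 libraries, is limited by depth.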
